A study of Arabidopsis thaliana with 6 samples.

Results

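The loci described here were selected to cover the heterochromatic knob and the pericentromere of *Arabidopsis thaliana* chromosome 4. They were chosen by identifier alone, as every gene of the count table from AT4G03000 to AT4G07999 whose number ends in 0, leaving out AT4G03280, AT4G04640 and AT4G05180. The rule took 288 of the 26764 genes of the table, among 4390 genes of chromosome 4. Of these, 273 lie in a single interval of 3.51 Mb, chr4:1324063-4829167 on TAIR10.1, and comprise 165 protein-coding genes and 108 annotated pseudogenes. The remaining 15 are non-coding RNA genes whose numbers fall into the same range but which lie elsewhere, between positions 5669154 and 12789468 of the same chromosome. They comprise 9 long non-coding RNA, 5 small nucleolar RNA (snoRNA) and 1 small nuclear RNA gene and are described separately. The borders of the knob and of the pericentromere are not marked in the annotation, so the label could not be checked locus by locus, and it does not hold for these 15.

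RNA-seq was done on pools of 3-week-old seedlings of the Col-0 ecotype, grown on agar medium under long days. Wild-type (wt) seedlings were compared with *h1.1h1.2h1.3* (*3h1*) seedlings, which carry T-DNA insertions in all 3 linker histone H1 genes, with 3 biological replicates of each genotype. The paper states that the *3h1* line kept some sequence of the L*er* accession after backcrossing, mainly next to the *H1.3* gene. Whether any of it lies at the loci described here was not examined. Because whole seedlings were used, fewer cells of a type and less RNA per cell cannot be told apart. Ribosomal RNA was depleted rather than poly(A) RNA selected, so that non-polyadenylated transcripts such as snoRNAs were also counted.

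Linker histones bind the DNA that enters and leaves the nucleosome and favour the compaction of chromatin. Heterochromatin of *Arabidopsis* gathers around the centromeres, in the nucleolus organizers and in an interstitial knob on the short arm of chromosome 4, where retroelements and their decayed copies outnumber active genes and are kept silent by DNA methylation and H3K9 methylation. Loci of such regions therefore ask whether transcripts from silent repeats appear once H1 is lost, and whether the active genes interspersed with them keep their level.

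The total count was between 4753812 and 6174881 per library. Between 38.8 and 46.6% of it fell on nuclear genes and between 52.2 and 60.0% on chloroplast genes, as in green tissue. The *H1.1* gene (AT1G06760) had 68.3, 103 and 70.8 CPM (counts per 1e+06 counts, normalised by TMM) in wt replicates 1, 2 and 3 and 12.5, 19.4 and 17.9 CPM in the *3h1* replicates, and the *H1.2* gene (AT2G30620) had 69.0, 87.2 and 85.2 CPM in wt and 12.8, 14.2 and 13.2 CPM in *3h1*. Both fell, with adjusted p values of 0.00163 and 4.05e-05 (edgeR's quasi-likelihood test), in the direction of the labels. The third H1 gene, AT2G18050, was not analysed here. Weakly expressed loci were counted more often in *3h1* replicates 1 and 3 than in any wt library. Of all 26511 nuclear genes, 26321 and 26427 had a count above 0 in these libraries, against 24939 in *3h1* replicate 2 and from 24621 to 25541 in wt. The part of this difference between libraries in the results on weakly expressed loci was not tested.

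The 108 pseudogenes and the 165 protein-coding genes alternated along the interval. In the first 500 kb from the start of AT4G03000, 18 of 72 loci were pseudogenes, in the second 34 of 63, and in the third 5 of 76. Beyond 1500 kb, the next 4 stretches of this length held 5, 10, 16 and 30 loci, of which 3, 10, 12 and 26 were pseudogenes. Protein-coding genes thus filled the third stretch, and pseudogenes outnumbered them in the sparsely filled stretches beyond it.

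The classes differed in the medians of their sequence features, while their ranges overlapped. For each locus, the share of its 31-base words that occur only once in the TAIR10.1 genome was determined, since reads can be assigned without doubt only to such words. Its median was 99.8% for the protein-coding genes and 69.3% for the pseudogenes, and 3 and 24 of them had less than 50% of such words. As deposited, 102 of the 108 pseudogenes and 116 of the 165 protein-coding genes had a fractional count in at least 1 library, where the authors' algorithm had divided reads between loci. Direct repeats of at least 100 bases and 80% identity, with 1 copy on each side of the middle of the locus and neither more than 5 kb beyond its ends, were found for 31 pseudogenes and 18 protein-coding genes. Long terminal repeats of retrotransposons have this arrangement. Their median identity was 95.3% for the pseudogenes and 85.5% for the protein-coding genes, whose pairs include repeats within the polyubiquitin gene *UBQ10*. The copies on both sides of AT4G04410, of 391 bases each, had an identity of 100%.

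Of the loci with such repeats, 9 pseudogenes and 1 protein-coding gene (AT4G03830) had a further trait of inserted retroelements. The sequence between the outer ends of the repeats began with TG and ended with CA, and the 5 bases before it recurred directly behind it, as in the duplication that an integrase leaves at its target. The ends were searched within 10 bases of the repeats that the alignment gave. The ends around 4 of them are printed because they bound loci with counts described further on, as the plus strand of TAIR10.1 with the duplicated 5 bases in capitals. AT4G03770 lies at chr4:1669366-1680247 between its outer ends together with AT4G03760, AT4G04050 at chr4:1943797-1955321 together with AT4G04070, and AT4G04420 at chr4:2198165-2203993. The ends found for AT4G04430, at chr4:2205875-2214952, also enclose the neighbouring AT4G04440.
AT4G03770 left end: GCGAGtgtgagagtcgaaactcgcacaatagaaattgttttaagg
AT4G03770 right end: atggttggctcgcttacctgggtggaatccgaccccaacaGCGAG
AT4G04050 left end: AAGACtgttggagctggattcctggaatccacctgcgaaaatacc
AT4G04050 right end: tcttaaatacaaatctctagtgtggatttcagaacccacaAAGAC
AT4G04420 left end: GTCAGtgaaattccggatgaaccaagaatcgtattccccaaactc
AT4G04420 right end: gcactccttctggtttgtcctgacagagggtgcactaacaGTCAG
AT4G04430 left end: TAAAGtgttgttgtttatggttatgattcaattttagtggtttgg
AT4G04430 right end: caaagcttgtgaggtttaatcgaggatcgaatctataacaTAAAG

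Next, transcript levels of the loci were compared between *3h1* and wt. Of the 17453 genes that passed the filter on low counts, 7 (0.0401%) had an edgeR adjusted p under 0.05, and 0 of these belong to the chromosome 4 set. Of the 288 loci, 132 passed that filter, comprising 104 protein-coding genes, 20 pseudogenes and 8 non-coding RNA genes, whereas 88 pseudogenes, 61 protein-coding genes and 7 non-coding RNA genes did not. With an unadjusted p value under 0.05, 6 loci were higher and 5 lower in *3h1*, which is 11 of 132 loci, where 5.33% of all tested genes were higher and 4.17% lower. Inside the interval, 6 of 124 tested loci were higher and 3 lower, and the other 2 lower ones are non-coding RNA genes outside it. When the study's thresholds were applied (unadjusted p under 0.05, and more than a 2-fold difference), 1 locus was higher (AT4G06670), with a background of 2.63% of all tested genes, and 1 was lower (AT4G07620), with a background of 0.435%. When wt replicates 1, 2 and 3 were left out in turn, 9 of 146, 6 of 156 and 4 of 157 tested loci were higher, beside 3.22, 3.45 and 2.42% of all genes tested. Without *3h1* replicate 2, 21 of 155 loci (13.5%) were higher, beside 6.66% of all genes, and 2 were lower, beside 0.709%. The smallest adjusted p value among the 132 was 0.269 (edgeR), at a locus outside the interval, and inside the interval it was 0.279 (edgeR). DESeq2 and limma voom likewise called 0 of the loci at an adjusted p value under 0.05, with 10 and 11 loci of 132 under an unadjusted 0.05, beside 5.7 and 8.66% of all tested genes. The median log2 fold change was 0.03 over the 132 loci and 0.01 over all tested genes. Over the 124 loci inside the interval it was 0.07, with 72 (58.1%) above 0, beside 51.2% of all tested genes.

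The classes differed in their medians. The 104 tested protein-coding genes had a median log2 fold change of 0.02, with 54 above and 50 below 0, against 0.00 for all tested protein-coding genes. This median differed by level. With a mean of 1 to 10 CPM, 42 of 63 were above 0 (median 0.12), and over 10 CPM, 12 of 41 (median -0.12). Of all tested protein-coding genes, 58.9 and 37.6% were above 0 at these levels. The 20 tested pseudogenes had a median of 0.44, with 18 above and 2 below 0. Of these pseudogenes, 16 had a mean of 1 to 10 CPM, with a median of 0.42 and 14 above 0. All 565 pseudogenes tested in the genome had a median of 0.46, with 443 above 0, a value close to that of the pseudogenes of chromosome 4, and nothing particular to the interval is read from it. By the study's thresholds, 1 of the 20 was higher and 1 lower, against 78 higher and 12 lower of the 565.

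**Figure D1:**
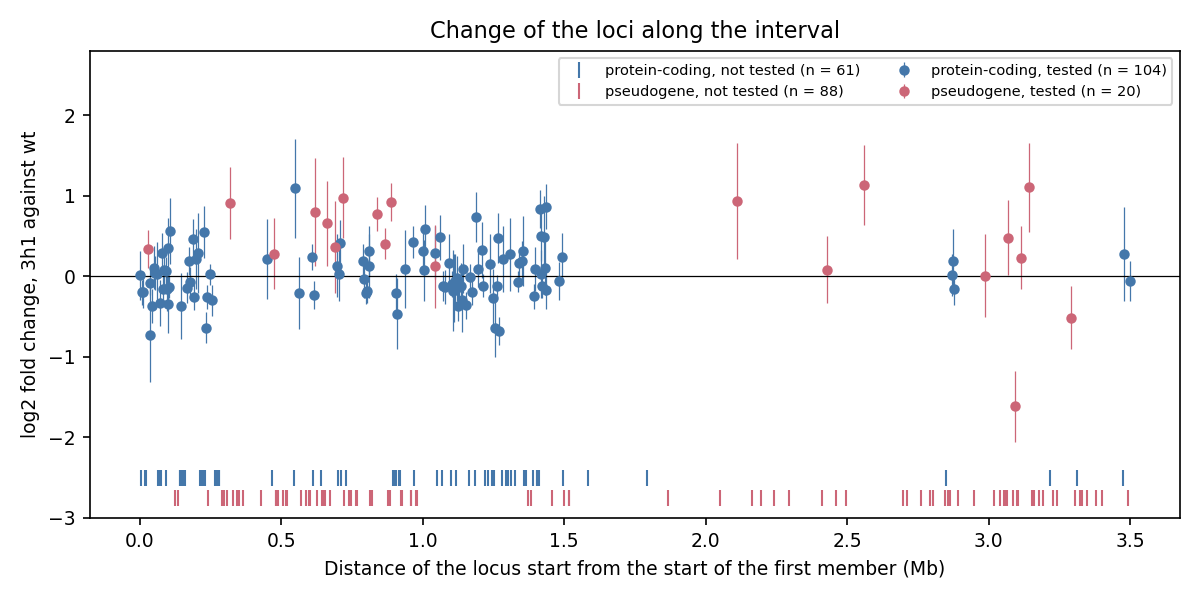
Log2 fold change of *3h1* against wt (y axis) for the 124 tested loci of the interval. The x axis gives the distance of the locus start from the start of AT4G03000 in Mb. Bars are standard errors derived from the log2 fold change and the edgeR F statistic. Blue points are protein-coding genes, red points pseudogenes, and ticks at the bottom are loci that did not pass the filter on low counts. Of the 20 pseudogenes, 18 lie above 0, while the 104 protein-coding genes scatter on both sides with a median of 0.02.

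The median of the pseudogenes rested on *3h1* replicates 1 and 3. When each *3h1* library was set against the mean of the wt libraries (log2 ratio with 0.5 CPM added), the median over the 20 pseudogenes was 0.43 in replicate 1, -0.10 in replicate 2 and 0.67 in replicate 3. For all 565 tested pseudogenes it was 0.36, -0.22 and 0.72 in the same order. Of the 20, 16, 9 and 18 were above their wt mean in *3h1* replicates 1, 2 and 3. In the fits, the median log2 fold change over the same 20 loci was 0.66 without *3h1* replicate 2, and over the 19 of them that could be tested without *3h1* replicate 3 it was 0.23. Without wt replicates 1, 2 and 3 in turn it was 0.57, 0.49 and 0.44. Over all pseudogenes of the set that passed the filter in each fit it was 1.19 without *3h1* replicate 2 (32 loci) and 0.95, 0.82 and 0.74 without wt replicates 1, 2 and 3 (29, 32 and 32 loci), since other loci pass the filter when a library is left out. With *3h1* replicate 2 alone against wt the sign turned, to -0.18 for the pseudogenes of the set and -0.28 for all tested pseudogenes. For the 104 tested protein-coding genes the median ratio was -0.04, -0.02 and -0.06 in *3h1* replicates 1, 2 and 3. The 61 protein-coding genes under the filter had the split of the pseudogenes, with sums of 39.6, 32.7 and 28.6 CPM in the wt libraries and of 55.6, 34.9 and 74.2 CPM in the *3h1* libraries. Of these 61, 45, 26 and 55 were above their wt mean in *3h1* replicates 1, 2 and 3, so the split was not particular to pseudogenes.

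**Figure D2:**
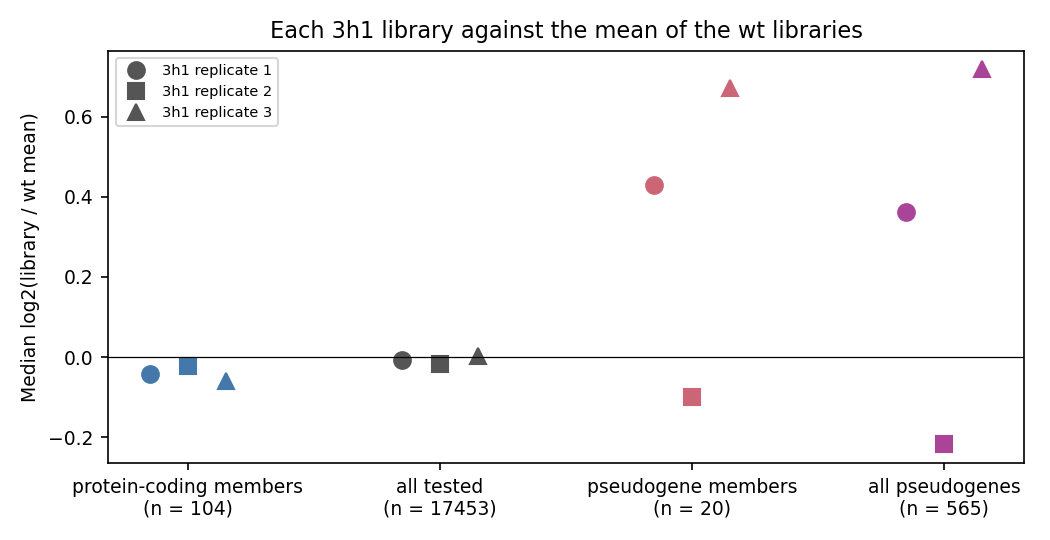
Median over loci of the log2 ratio of a *3h1* library to the mean of the wt libraries (y axis, with 0.5 CPM added), for the tested protein-coding and pseudogene loci of chromosome 4, all tested genes, and all tested pseudogenes (x axis). The marker shape gives the *3h1* replicate. The pseudogene medians of replicates 1 and 3 lie at 0.43 and 0.67 and that of replicate 2 at -0.10, as for all pseudogenes.

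The summed level of the pseudogenes shows the same split. The 20 tested pseudogenes together held 235, 260 and 227 CPM in wt replicates 1, 2 and 3, and 429, 228 and 383 CPM in the *3h1* replicates. *3h1* replicate 2 lay within the wt range, while replicates 1 and 3 lay above it. The 88 pseudogenes under the filter held 49.8, 44.4 and 32.9 CPM in wt and 85.3, 35.5 and 134 CPM in *3h1*. The groups overlapped in both sums. For all 108, the mean sum was 283 ± 22.1 CPM in wt as against 432 ± 146 CPM in *3h1* (SD, n = 3 each). All 288 loci together took 1.04 ± 0.037% of the nuclear count in wt and 1.03 ± 0.088% in *3h1* (SD, n = 3 each), a difference smaller than the spread between replicates. This sum includes the 15 non-coding RNA genes outside the interval, which took 0.565 ± 0.016% in wt and 0.522 ± 0.096% in *3h1*. The 273 loci inside it took 0.477 ± 0.021% in wt and 0.511 ± 0.023% in *3h1*, a difference larger than either SD. The groups still overlapped, since *3h1* replicate 2 lay below wt replicate 1. In CPM, the 273 loci held 2105 ± 13.9 in wt and 2166 ± 102 in *3h1*. This difference was not tested.

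**Figure D3:**
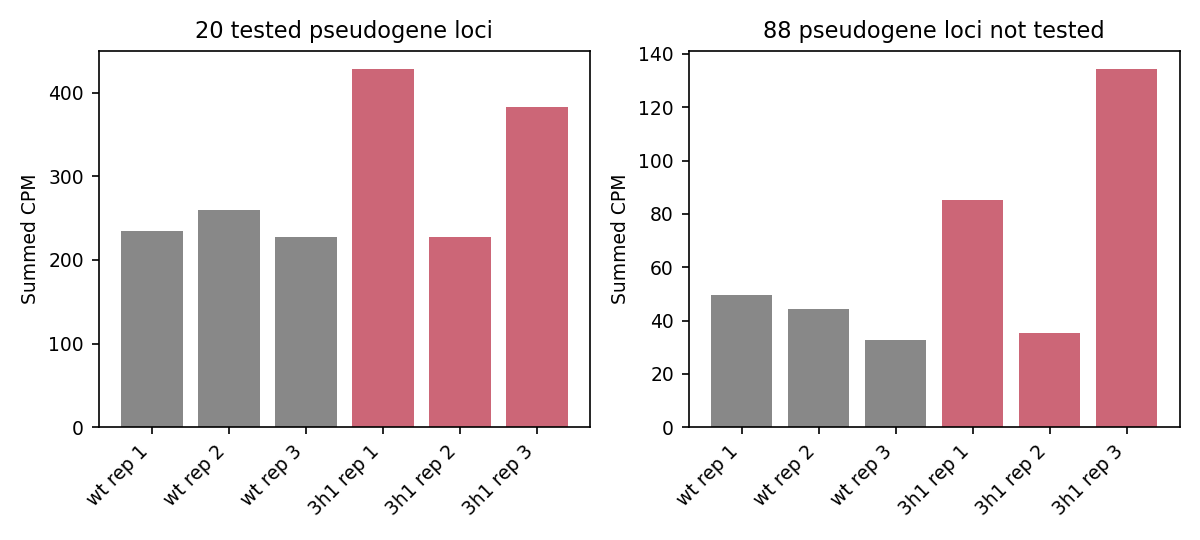
Summed CPM per library (bars, y axis from 0) of the 20 tested pseudogenes (left) and of the 88 pseudogenes that did not pass the filter on low counts (right), for wt (grey) and *3h1* (red) replicates. *3h1* replicates 1 and 3 stand above every wt library in both panels, at 429 and 383 CPM on the left, while replicate 2 lies at 228 CPM within the wt range.

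Of the 108 pseudogenes, 106, 95 and 84 had a count above 0 in wt replicates 1, 2 and 3, as did 105, 96 and 107 in the *3h1* replicates. At least 5 counts were found for 45, 25 and 23 in wt and for 71, 27 and 85 in *3h1*. Of all 2500 pseudogenes in the table, 1062, 741 and 732 reached this in wt and 1566, 815 and 1904 in *3h1*. Of all 26511 nuclear genes, 20173, 18260 and 18671 did so in wt and 22403, 18970 and 23883 in *3h1*. These counts were not scaled to depth. The nuclear count was 2579912, 1846022 and 2174164 in wt and 2877178, 2275730 and 2791861 in *3h1*. Of all 288 loci, 3 had no count in any wt library and 0 had none in *3h1*. A count of 0 in a library of this depth still allows up to 3 counts, by counting error alone, and does not show a silent locus. Fractional counts were held by 36.1, 22.2 and 24.3% of the 288 loci in the wt libraries, in the order of their replicate number, and by 43.4, 27.8 and 57.6% in the *3h1* libraries. In each genotype this share was lowest in the library labelled replicate 2.

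The groups did not overlap for 36 of the 288 loci that were higher in all *3h1* libraries than in all wt libraries (8.91% of all genes of the table were), and for 7 that were lower in all of them (5.31% of all genes). The pseudogenes accounted for 19 of the 36 and 1 of the 7. In *3h1* replicate 2 taken by itself, 122 of the 288 loci were above their wt mean, against 191 and 202 in replicates 1 and 3. As a share, 17.6% of the 108 pseudogenes were higher without overlap, and so were 12.8% of all 2500 pseudogenes in the table. An exact permutation test on 3 against 3 libraries cannot give a two-sided p value under 0.1 for a single locus.

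Of the 4 pseudogenes with the highest CPM, 3 are close neighbours in the second 500 kb of the interval. These are AT4G04400, AT4G04410 and AT4G04440, which lie between positions 2161216 and 2214394. AT4G04440 (chr4:2212146-2214394, plus strand) had 15.8, 11.2 and 11.4 CPM in wt replicates 1, 2 and 3 and 24.3, 17.2 and 31.4 CPM in the *3h1* replicates. All *3h1* libraries were above all wt libraries, with means of 12.8 ± 2.58 and 24.3 ± 7.11 CPM (SD, n = 3 each). The log2 fold change was 0.92 (SE 0.23, edgeR adjusted p = 0.279). Without *3h1* replicate 2 its adjusted p value was 0.0478 (edgeR) with a log2 fold change of 1.08, the only call among the loci under the 15 alternatives. Of its 31-base words, 99.9% occur once in the genome, and no other place of the genome matched it over at least 500 bases at 80% identity. Its neighbour between the same repeat ends, AT4G04430, had at most 0.897 CPM in any library, and AT4G04420, whose repeat ends are also printed, at most 0.748 CPM. Both were named for their place, after their values were seen.

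AT4G04400 (chr4:2161216-2163867, minus strand) was the most abundant pseudogene per length, with a mean of 66.4 RPKM (reads per kilobase of exon and 1e+06 reads of the total count). It had 97.4, 107 and 114 CPM in wt and 251, 131 and 162 CPM in *3h1*. The groups did not overlap, and the *3h1* value ranged more widely than the wt value. Its log2 fold change was 0.77 (SE 0.22, edgeR adjusted p = 0.311). Only 21.4% of its 31-base words occur once, and its count was fractional in all 6 libraries. The closest copy, AT3G45380 on chromosome 3, matches it over 2653 bases with 98.6% identity and had between 7 and 34.2 counts per library, and reads that fit both cannot be assigned to either with certainty. AT4G04410 (chr4:2189515-2193763, plus strand), which lies between the identical repeats described above, had 11.0, 12 and 12.8 CPM in wt and 12.98, 15.1 and 19.0 CPM in *3h1*. Its groups did not overlap either. Its log2 fold change was 0.40 (edgeR adjusted p = 0.549). Its match on chromosome 1, AT1G43775, has an identity of 90.2%.

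Other pseudogenes differed from library to library. AT4G07660 (chr4:4436761-4441587) was another of the 4 pseudogenes with the highest CPM and had 48.6, 70.5 and 47.5 CPM in wt and 84.3, 21.9 and 88.3 CPM in *3h1*. *3h1* replicate 2 was the lowest of all libraries and replicates 1 and 3 the highest. Its log2 fold change was 0.23 with a standard error of 0.39 (edgeR adjusted p = 0.882), and it was -1.33 with *3h1* replicate 2 alone. AT4G04050, likewise named for its repeat ends, had 2.14, 0.997 and 0.609 CPM in wt and 2.98, 0.374 and 3.29 CPM in *3h1*, with *3h1* replicate 2 again the lowest of all libraries. AT4G07660 had 160 further matches of at least 500 bases and 80% identity in the genome. AT4G06670 (chr4:3881990-3888610), the single locus past the study's thresholds upward, had 2.46, 1.99 and 1.22 CPM in wt and 4.18, 1.68 and 6.58 CPM in *3h1*, so the groups overlapped. Its log2 fold change was 1.13 with a standard error of 0.50 (edgeR adjusted p = 0.507), and it was -0.18 with *3h1* replicate 2 alone.

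AT4G07620 (chr4:4418650-4421820) went the other way. It had 13.3, 9.22 and 4.06 CPM in wt and 1.49, 3.74 and 3.59 CPM in *3h1*, with means of 8.86 ± 4.63 and 2.94 ± 1.26 CPM (SD, n = 3 each). All *3h1* libraries lay below all wt libraries, wt replicate 3 being close to them. The difference was -1.62 on the log2 scale (SE 0.44), that is 3.06-fold lower (edgeR adjusted p = 0.311). The direction held under all 15 alternatives, from -1.98 to -1.17, with adjusted p values from 0.109 to 0.969. It has 91 further matches in the genome, the closest on chromosome 2 with 91.1% identity, and 56.0% of its 31-base words occur once. *AOP2* (AT4G03060), annotated as a pseudogene in this accession and known in other accessions as an enzyme of glucosinolate side-chain modification, is not a repeat of this kind, with 98.4% of its words found once. It had 9.69, 5.98 and 10.15 CPM in wt and 10.9, 9.53 and 12.6 CPM in *3h1*, with a log2 fold change of 0.34 (edgeR adjusted p = 0.683).

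**Figure D4:**
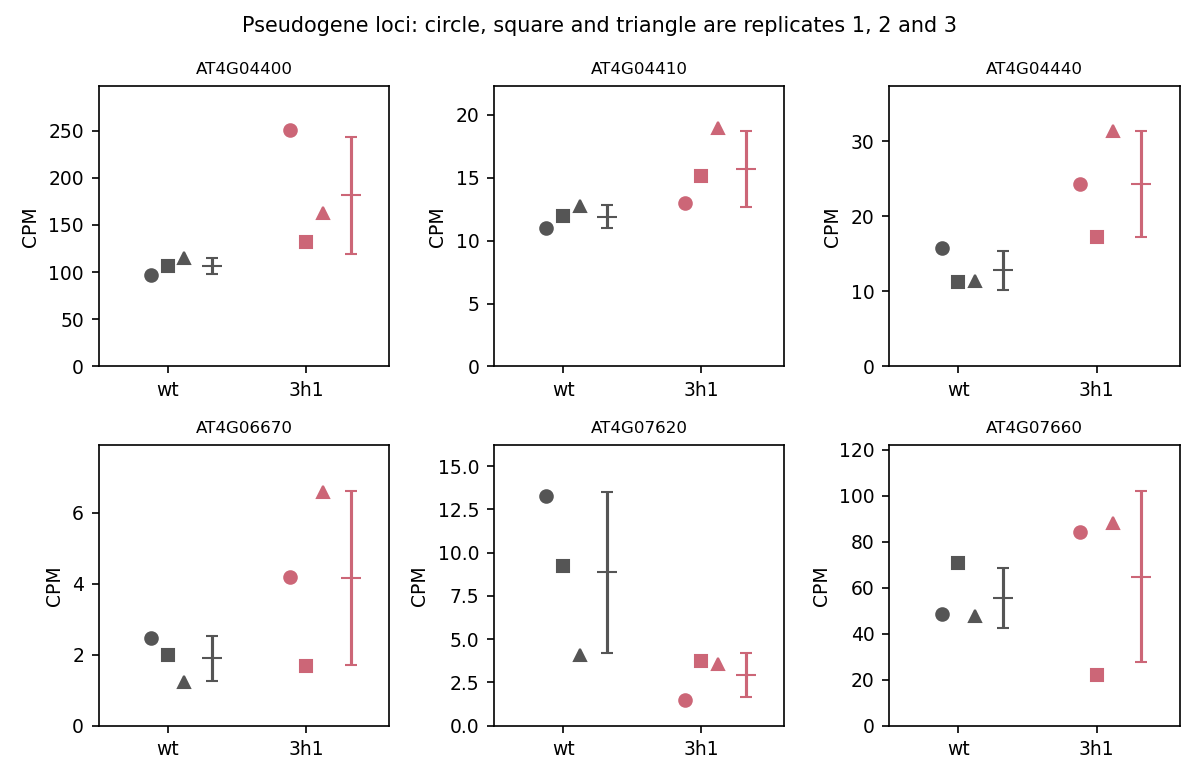
CPM (y axis, from 0) of 6 pseudogenes in wt (grey) and *3h1* (red), with circles, squares and triangles for replicates 1, 2 and 3 and the mean ± SD (n = 3) beside them. All *3h1* libraries lie above wt for AT4G04400, AT4G04410 and AT4G04440 and below wt for AT4G07620, whereas replicate 2 lies apart from replicates 1 and 3 for AT4G06670 and AT4G07660.

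Pseudogenes under the filter had at most 41.3 counts in a library. The 3 with the highest count summed over all libraries are given here. This choice favours loci with a single high library, and they are not typical of the class. The median count of the 88 was 3, 1.29 and 2 in wt and 5.16, 2 and 7.76 in *3h1*. AT4G03770, whose repeat ends are printed above, had 6.17, 7 and 2.17 counts in wt replicates 1, 2 and 3 and 16.4, 8.03 and 31.5 counts in *3h1*. AT4G06640 had 7.01, 4 and 3 counts in wt and 20.6, 4 and 30.3 in *3h1*. AT4G07850 had 16.5, 2 and 1.43 counts in wt and 7.73, 6.47 and 41.3 in *3h1*. In each of them *3h1* replicate 3 was the highest library and *3h1* replicate 2 was within the wt range or, for AT4G03770, just above it. Without a filter on low counts, 19 loci of the set were higher by the study's thresholds, 13 of them pseudogenes, where 4.33% of all 26723 genes then tested were higher, and 1 was lower (0.561% of all). The 13 were 12% of the 108 pseudogenes, beside 11.5% of all 2491 pseudogenes then tested. The median log2 fold change was 0.83 for the 108 and 0.71 for the 2491, although only 44 of the 108 were above their wt mean in *3h1* replicate 2, and the smallest adjusted p value was 0.145 (edgeR).

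The protein-coding genes of the interval were then examined by what they encode. The third 500 kb stretch held 71 of them beside 5 pseudogenes. *RFNR1* (AT4G05390), a ferredoxin-NADP reductase of the root type, had 7.23, 5.98 and 4.67 CPM in wt and 8.65, 12.5 and 11.1 CPM in *3h1*. All *3h1* libraries were above all wt libraries, replicate 2 being the highest. *RFNR1* differed by 0.83 on the log2 scale (SE 0.24, edgeR adjusted p = 0.325). *MFDX1* (AT4G05450), a ferredoxin of mitochondria, had 4.43, 2.49 and 4.26 CPM in wt and 6.56, 6.91 and 7.33 CPM in *3h1*, again without overlap, and the log2 fold change was 0.86 (SE 0.28, edgeR adjusted p = 0.36). It overlaps AT4G05460 on the opposite strand, and whether counting used the strand is not given in the sources used here. For both genes *3h1* replicate 2 was above *3h1* replicate 1. AT4G04940, a WD-40 repeat protein, had 3.45, 5.23 and 2.64 CPM in wt and 5.97, 7.47 and 5.24 CPM in *3h1*, with a log2 fold change of 0.74 (edgeR adjusted p = 0.485). It overlaps AT4G04930 on the opposite strand.

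Lower values in *3h1* were found for AT4G05070, annotated as wound-responsive, with 39.3, 34.9 and 34.3 CPM in wt and 26.9, 23.7 and 17.4 CPM in *3h1*. The groups did not overlap, and its log2 fold change was -0.68 (SE 0.17, edgeR adjusted p = 0.287). *RMA1* (AT4G03510), a membrane-anchored RING ubiquitin ligase, had 10.5, 10.2 and 11.8 CPM in wt and 6.56, 7.29 and 7.03 CPM in *3h1*. Its libraries agreed closely within each genotype, with means of 10.8 ± 0.825 and 6.96 ± 0.367 CPM (SD, n = 3 each). For *RMA1* the log2 fold change was -0.64 (edgeR adjusted p = 0.331), and it overlaps AT4G03505 on the same strand. *PDF2* (AT4G04890), a homeodomain factor of the shoot epidermis, had 41.7, 41.1 and 43.8 CPM in wt and 34.8, 38.7 and 25.3 CPM in *3h1*, with a log2 fold change of -0.36 (edgeR adjusted p = 0.530).

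**Figure D5:**
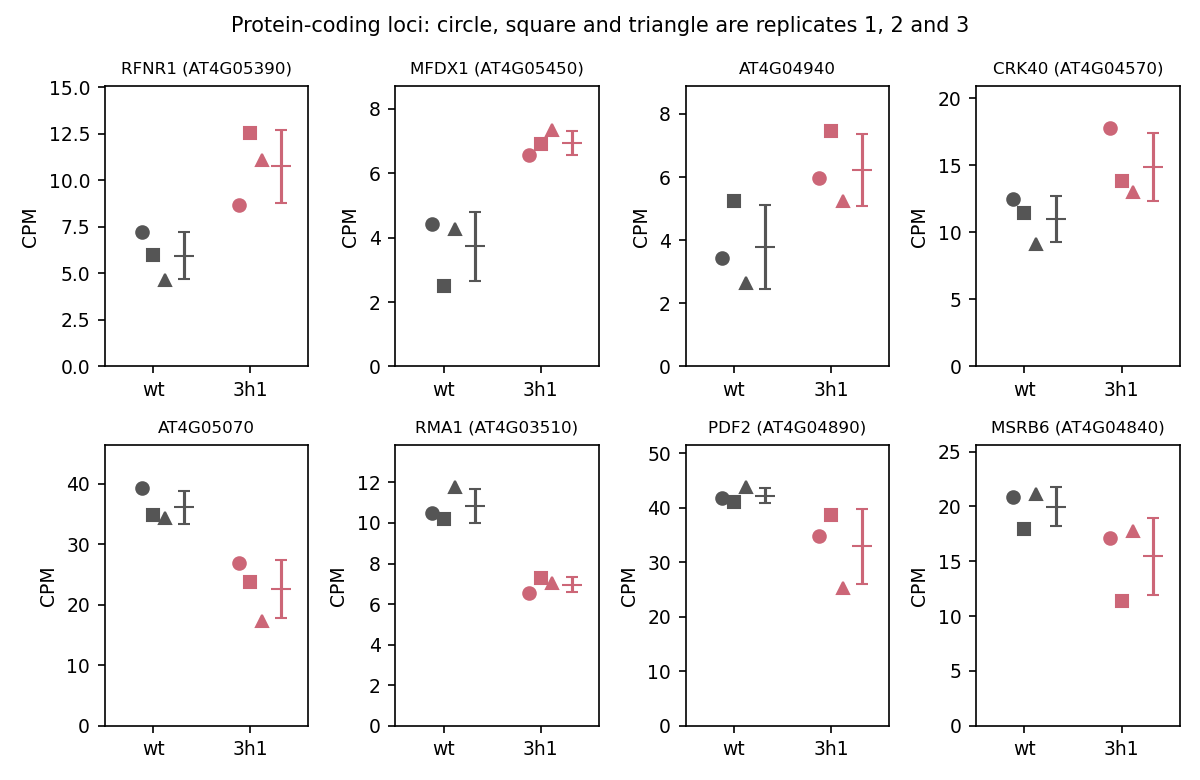
CPM (y axis, from 0) of 8 protein-coding loci of the interval in wt (grey) and *3h1* (red), with circles, squares and triangles for replicates 1, 2 and 3 and the mean ± SD (n = 3) beside them. The upper row shows loci with higher and the lower row loci with lower values in all *3h1* libraries, for example 8.65 to 12.5 CPM against 4.67 to 7.23 CPM for *RFNR1*.

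Gene families of the interval were taken from words in their descriptions, and 0 of their tested members had an unadjusted p value under 0.05, except in the group of uncharacterized loci. The receptor group held 10 loci, of which 6 were tested, with 3 above and 3 below 0 and a median log2 fold change of -0.02. It comprises 6 cysteine-rich receptor-like kinases, which sense extracellular signals, and also AT4G07820, a secreted cysteine-rich protein that the words brought in. *CRK40* (AT4G04570) had 12.5, 11.5 and 9.13 CPM in wt and 17.8, 13.8 and 13.01 CPM in *3h1*, without overlap (log2 fold change 0.43, edgeR adjusted p = 0.534). The receptor-like kinase gene *SRF3* (AT4G03390) had 15.4, 19.2 and 13.6 CPM in wt and 15.1, 16.6 and 12 CPM in *3h1*, so the groups overlapped.

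Of the 4 calcium-dependent protein kinase genes, which pass on calcium signals, 3 were tested, 1 above and 2 below 0. *CPK27* (AT4G04700) had 9.85, 6.98 and 6.49 CPM in wt and 11.9, 6.91 and 13.9 CPM in *3h1*, where replicate 2 was the lowest of the *3h1* libraries (log2 fold change 0.48, edgeR adjusted p = 0.617). *CPK21* (AT4G04720) had 18.9, 19.9 and 18.5 CPM in wt and 16.3, 22.6 and 14.1 CPM in *3h1*, and *3h1* replicate 2 was then the highest. The 4 methionine sulfoxide reductase genes encode enzymes that repair oxidised methionine, and the 3 tested were all below 0 with a median of -0.05. *MSRB6* (AT4G04840) had 20.9, 17.9 and 21.1 CPM in wt and 17.2, 11.4 and 17.8 CPM in *3h1*, without overlap but with *3h1* replicate 3 next to the lowest wt library (log2 fold change -0.37, edgeR adjusted p = 0.589).

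Of the 7 ubiquitin and ubiquitin-like genes, 3 were tested. *UBQ10* (AT4G05320), a polyubiquitin gene often used as a constant reference, was the most abundant protein-coding locus per length, with 127 ± 18.6 RPKM in wt as against 124 ± 16.5 RPKM in *3h1* (SD, n = 3 each). Its TMM-normalised level was 293, 270 and 278 CPM in wt and 225, 278 and 206 CPM in *3h1*, with a log2 fold change of -0.25 and a standard error of 0.15 (edgeR adjusted p = 0.648). Its groups overlapped. Of the 8 ankyrin repeat genes, 4 were tested, 3 above and 1 below 0, with a median of 0.25. AT4G05040 was the one below 0, with 4.27, 9.97 and 5.48 CPM in wt and 3.13, 5.04 and 4.19 CPM in *3h1* (log2 fold change -0.65, edgeR adjusted p = 0.598).

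Single tested loci stood for 3 further groups. *VFB3* (AT4G07400), the tested one of 5 F-box genes, had a log2 fold change of 0.19, and AT4G04180, a nucleoside triphosphate hydrolase and the tested one of 6 loci with the word nucleoside, one of 0.13. *MED21* (AT4G04780), the gene of a Mediator subunit, had one of -0.18 with a standard error of 0.50. Their values overlapped between the genotypes. Only gene names and product descriptions were searched. The words for disease resistance and for transposons matched 0 loci there, which does not show that such loci are absent. Pseudogenes that the annotation leaves without a function fall into the uncharacterized group. The uncharacterized group held 114 loci, 12 of them protein-coding. Of its 21 tested loci, 19 were above and 2 below 0, and 3 were higher and 1 lower with an unadjusted p value under 0.05, where 5.33% of all tested genes were higher and 4.17% lower. Pseudogenes make up most of the group, and 443 of the 565 tested in the genome were above 0.

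Lastly, the 15 non-coding RNA genes outside the interval were described on their own. Another annotated gene overlaps 11 of the 15, and whether counting used the strand is not given in the sources used here. The 5 loci of the set with the highest level per length were among the 15. The long non-coding RNA AT4G07070 had a mean of 5365 RPKM and the U1 small nuclear RNA *U1.2* (AT4G07120), a part of the spliceosome, one of 2471 RPKM. The snoRNAs AT4G06310, AT4G06240 and AT4G06250 followed with 1183, 886 and 602 RPKM. AT4G07070 had 1627, 1615 and 1586 CPM in wt and 1608, 1645 and 1124 CPM in *3h1*. It shares its position with AT4G07075 and AT4G07080 on the same strand, and its count was fractional in all 6 libraries. *U1.2* had 452, 478 and 411 CPM in wt and 357, 480 and 295 CPM in *3h1*. In both, *3h1* replicate 3 was the lowest library and the groups overlapped.

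Box C/D snoRNAs guide the methylation of ribosomal and other RNAs and are recognised by a box C near the 5′ end and a box D near the 3′ end. The 5 snoRNAs are printed 5′ to 3′ from TAIR10.1, with TGATGA within the first 20 bases (box C) and CTGA within the last 15 bases (box D) in capitals, since 1 of them had the smallest p value of all loci in the set. AT4G06240 (chr4:8459709-8459804) and AT4G06250 (chr4:8460056-8460149) lie next to each other, as do AT4G06310 (chr4:8712720-8712813) and AT4G06320 (chr4:8713055-8713144), and AT4G06010 lies at chr4:7683787-7683889. AT4G06310 and AT4G06320 are on the minus strand and the others on the plus strand.
AT4G06010: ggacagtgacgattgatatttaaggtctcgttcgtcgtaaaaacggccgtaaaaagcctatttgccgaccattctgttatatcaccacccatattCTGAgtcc
AT4G06240: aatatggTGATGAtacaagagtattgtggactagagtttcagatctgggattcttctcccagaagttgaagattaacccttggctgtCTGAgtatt
AT4G06250: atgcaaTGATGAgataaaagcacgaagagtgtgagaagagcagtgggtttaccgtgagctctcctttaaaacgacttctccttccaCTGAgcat
AT4G06310: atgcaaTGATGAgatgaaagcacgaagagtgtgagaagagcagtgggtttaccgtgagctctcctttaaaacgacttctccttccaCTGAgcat
AT4G06320: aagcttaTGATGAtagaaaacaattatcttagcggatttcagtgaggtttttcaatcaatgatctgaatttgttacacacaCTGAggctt

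Both sets of letters were found in 4 of the 5, and in 0.0379% of all non-overlapping 94-base windows on both strands of chromosome 4. These windows were cut at fixed steps and not at gene ends, so this share is not a matched background for the snoRNAs. AT4G06250 and AT4G06310 have the same 94 bases except for A16G, counted from the 5′ end of AT4G06250, so that 25.0% of the 31-base words of each occur once and reads from them cannot be told apart over most of their length. AT4G06310 had 104, 115 and 122 CPM in wt and 141, 109 and 79.9 CPM in *3h1*, and AT4G06250 had 45.2, 63.6 and 63.5 CPM in wt and 77.1, 53.1 and 39.6 CPM in *3h1*. The order of the *3h1* libraries was the same in both, and the groups overlapped. AT4G06240 had 83.1, 89.2 and 104 CPM in wt and 102, 70.4 and 66.9 CPM in *3h1*, with 0% of its words found once.

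AT4G06320 had the smallest p value of the 132 tested loci. It had 53.2, 49.6 and 73.7 CPM in wt and 36.4, 39.4 and 32.5 CPM in *3h1*, with means of 58.8 ± 12.98 and 36.1 ± 3.49 CPM (SD, n = 3 each). All *3h1* libraries were below all wt libraries. The log2 fold change was -0.71 (SE 0.17, edgeR adjusted p = 0.269), and 90.0% of its words occur once. AT4G06010 had 45.5, 56.6 and 72.9 CPM in wt and 56.8, 29.5 and 28.9 CPM in *3h1*. Its groups overlapped through *3h1* replicate 1, and the log2 fold change was -0.60 (edgeR adjusted p = 0.505). Of the 8 tested non-coding RNA genes, 7 were below 0 and 1 above, with a median of -0.17. Of the 771 tested in the genome, 51.8% were above 0, with a median of 0.01. The comparison was not matched for level, and AT4G06250 and AT4G06310 are not separate readings. The snoRNA neighbours AT4G06310 and AT4G06320, which lie within 1 kb of each other, thus had log2 fold changes of -0.05 and -0.71, a difference that was not tested.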

How the data were processed

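RNA of 3-week-old seedlings was depleted of ribosomal RNA and sequenced on an Ion Proton, in 3 wt and 3 *3h1* libraries. The authors aligned the reads to TAIR10 and deposited expected counts per gene, estimated by an expectation-maximization step in Partek that divides reads between loci, so counts can be fractional. The strand setting is not given in the sources used here. Columns of the authors' own comparison (ratios and p-values) were not used. Replicates are separate samples by their labels, and p-values measure the spread between these libraries.

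Expected counts were rounded, filtered with filterByExpr, normalised by TMM and tested with edgeR 4.0.16 (glmQLFit, glmQLFTest) on all genes, with Benjamini-Hochberg adjustment. The standard errors given are the absolute log2 fold change divided by the square root of the edgeR F statistic. Alternatives used DESeq2 1.42.0, limma 3.58.1 and those of the closing section. RPKM and shares of the nuclear count came from the unrounded counts, and CPM from the rounded counts. Coordinates, classes and sequences were read from the RefSeq annotation and genome of TAIR10.1, whose build name differs from the authors' TAIR10. Copies were searched with blastn 2.17.0. Depth was 4753812 to 6174881 counts per library, and floors cover counting error only.

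The loci named are every one with an adjusted p under 0.05, the 8 of each direction with the smallest p, the 5 with the highest mean RPKM, the 3 untested ones with the highest summed count, the tested one with the smallest p and the most abundant one of each gene list, the 5 most abundant tested pseudogenes, and the H1 genes. The members and lists were chosen with earlier results of these data known.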

Additional observations from a re-analysis of the deposited data

How the results depend on the processing

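Of the 30 tested loci named in the text, 18 kept their direction under all 15 alternatives and 12 did not in at least 1. With *3h1* replicates 1 and 3 both left out, the log2 fold change turned to 0.0615 for AT4G03390, -0.18 for AT4G04180, -0.18 for AT4G04700, 0.25 for AT4G04720, -0.18 for AT4G06670, -1.33 for AT4G07660, 0.0363 for AT4G07070 and 0.11 for AT4G07120. AT4G06250 turned to 0.0163 with upper quartile normalization and to 0.0224 with at least 10 counts required in every library. With single libraries left out, the values ranged from -0.15 to 0.25 for AT4G04180, from -0.36 to 0.02 for AT4G04720, from -0.47 to 0.31 for AT4G04780, from -0.0611 to 0.63 for AT4G07400, from -0.0494 to 0.61 for AT4G07660, from -0.31 to 0.19 for AT4G06250, from -0.27 to 0.14 for AT4G06310 and from -0.26 to 0.0165 for AT4G07070.

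The number of genes with an adjusted p under 0.05 was 12 without a filter on low counts, 3 with at least 10 counts in every library and 33 with DESeq2. With 1 library left out it ranged from 3 to 96 for all genes and from 0 to 1 for the chromosome 4 loci, the highest without *3h1* replicate 2. By the study's thresholds, 1157, 125 and 158 genes were higher without a filter, with at least 10 counts and with *3h1* replicate 2 alone, and 150, 45 and 251 were lower. Of the chromosome 4 loci, 19, 0 and 2 were higher under these settings and 0 with limma voom, and 4 were lower with *3h1* replicate 2 alone, a fit in which the spread comes from the wt libraries only. With 1 library left out, from 271 to 1249 genes and from 1 to 21 of the loci were higher, and from 94 to 133 genes and from 1 to 2 of the loci were lower.

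The median log2 fold change of all tested genes was -0.00278 with RLE normalization, 0.0404 with upper quartile normalization, 0.0695 without a filter, -0.00332 with DESeq2 and -0.0211 with *3h1* replicate 2 alone, and from 0.000145 to 0.0236 with 1 library left out. For the chromosome 4 loci it was 0.0594 with upper quartile normalization, 0.34 without a filter, 0.0126 with at least 10 counts, 0.0144 with DESeq2, -0.0378 with *3h1* replicate 2 alone and from 0.0215 to 0.11 with 1 library left out. For their protein-coding genes it was 0.0513, 0.104 and -0.0127 with upper quartile normalization, without a filter and with *3h1* replicate 2 alone, and from -0.0274 to 0.0232 with 1 library left out. For their pseudogenes it was -0.18 with *3h1* replicate 2 alone and from 0.233 to 1.19 with 1 library left out, where 19 to 32 of them passed the filter, and for all pseudogenes -0.284 and from 0.174 to 0.875. Medians over the same 20 pseudogenes in each fit were added after seeing the data. The cause of these shifts was not tested.

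Counting a locus as detected from 5 counts gave a mean of 155.3 loci in wt and 206.7 in *3h1*, and of 31 and 61 pseudogenes. *3h1* replicate 2 had 152 loci and 27 pseudogenes, within the wt ranges of 143 to 179 and 23 to 45. Of all 26511 nuclear genes, from 18260 to 20173 were detected in this way in wt, and 22403, 18970 and 23883 in *3h1* replicates 1, 2 and 3. The 59 loci with whole numbers in all libraries took 0.059% of the nuclear count in wt and 0.0582% in *3h1*.

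Deviations of same-numbered libraries correlated at -0.059, -0.155 and -0.111. Their mean was -0.108, against 0.054 for libraries of different number. A pairing of the samples was not tested beyond these values. A fit with the replicate block called 3 genes at an adjusted p under 0.05, and 0 of the chromosome 4 loci passed the study's thresholds upward. Depth limits the 156 untested loci, which had at most 41.3 counts in a library.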
